A study of Mus musculus with 4 samples.

Results

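The genes described here are Dbp, Tef and Nfil3, which encode related transcription factors of the circadian clock output. They were taken as all probe sets whose platform annotation gives one of these as the only gene symbol, which found 4 of the 12422 probe sets on the array other than controls, or 3 of 8251 named genes. Dbp and Tef had 1 probe set each and Nfil3 had 2. The array was the Affymetrix MG_U74Av2 GeneChip, on which a probe set is a group of short oligonucleotides against 1 transcript. Its Signal is a summarised brightness, and its detection call (Present, Marginal or Absent) says whether the matched probes stood above their mismatched partners. The RNA came from livers of male mice of the C57BL/6 strain, and 4 arrays were run, 1 for each combination of an operation and a time of day. ADX mice had lost both adrenal glands, the source of corticosterone, under ketamine (91 mg/kg) and xylazine (3.6 mg/kg), and drank 0.9% NaCl. Sham-operated mice, the controls, drank water, and both groups ate chow freely. Livers were taken at ZT14 and ZT2, that is 14 h and 2 h of zeitgeber time, which runs from lights on. The groups were thus ADX ZT14, ADX ZT2, sham ZT14 and sham ZT2. The labels give neither the age of the mice nor the number behind each array. With 1 array per group there were no replicates, so no difference between single arrays has an error.

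Dbp and Tef belong to the proline and acidic amino acid-rich (PAR) basic leucine zipper family. These proteins bind as dimers to a DNA element called the D-box and activate transcription. Nfil3, also called E4BP4, has a related DNA-binding domain, binds the same element and represses it. In liver the PAR proteins are known for driving rhythms in genes of detoxification and haem synthesis. The activators CLOCK and BMAL1 act on Dbp through E-boxes, and the repressor REV-ERBα acts on Nfil3 through sites shared with ROR receptors.

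Because the PAR genes and Nfil3 moved in opposite directions between the times of day, their promoter windows are shown first. RefSeq sequence of build GRCm38.p6 covered all 3 genes with 4 windows of 300 bases, given 5′ to 3′ on the strand of the gene, with motif matches in capitals. Dbp lies on chromosome 7 from 45705100 to 45710203, and its window (chr7:45704997-45705296, plus strand) surrounds a start site 147 bases inside the gene's outer boundary. Tef spans 81802673 to 81826863 on chromosome 15 and has windows for 2 start sites, both on the plus strand. The first (chr15:81802423-81802722) is at the outer boundary, and the second (chr15:81811164-81811463) lies 8741 bases inside the gene. Nfil3 spans 52967209 to 52982878 on chromosome 13, and its window (chr13:52980990-52981289, minus strand) surrounds a start site 1839 bases inside the gene.
Dbp: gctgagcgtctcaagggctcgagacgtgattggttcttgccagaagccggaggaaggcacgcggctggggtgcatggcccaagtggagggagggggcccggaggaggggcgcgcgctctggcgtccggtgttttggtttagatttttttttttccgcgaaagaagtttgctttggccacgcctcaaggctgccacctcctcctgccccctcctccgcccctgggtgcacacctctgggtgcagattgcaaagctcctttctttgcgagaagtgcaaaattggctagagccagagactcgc
Tef, first start site: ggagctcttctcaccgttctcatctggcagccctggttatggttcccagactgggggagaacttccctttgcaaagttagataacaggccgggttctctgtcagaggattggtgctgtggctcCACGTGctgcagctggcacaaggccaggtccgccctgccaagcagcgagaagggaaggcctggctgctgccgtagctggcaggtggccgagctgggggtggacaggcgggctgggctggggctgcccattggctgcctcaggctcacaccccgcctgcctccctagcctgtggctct
Tef, second start site: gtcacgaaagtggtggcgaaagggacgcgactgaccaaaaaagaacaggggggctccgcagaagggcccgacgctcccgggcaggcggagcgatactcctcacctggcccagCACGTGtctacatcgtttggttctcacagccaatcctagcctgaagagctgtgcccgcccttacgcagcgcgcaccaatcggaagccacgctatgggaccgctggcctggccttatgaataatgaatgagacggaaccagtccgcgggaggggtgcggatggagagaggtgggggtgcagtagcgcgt
Nfil3: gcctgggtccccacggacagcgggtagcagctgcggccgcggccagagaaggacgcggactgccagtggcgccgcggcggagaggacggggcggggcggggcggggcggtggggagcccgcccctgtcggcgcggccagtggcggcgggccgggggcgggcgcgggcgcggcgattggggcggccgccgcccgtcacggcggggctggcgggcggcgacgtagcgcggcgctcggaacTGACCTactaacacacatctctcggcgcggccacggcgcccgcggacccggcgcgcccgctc

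Both strands were searched for 6 motifs. They were the E-box CACGTG, its variant CACGTT, the D-box TTATGTAA, its palindrome TTACGTAA, the core AGGTCA of ROR elements and the palindromic glucocorticoid response element. The letters CACGTG stood once in each Tef window, at positions -127 and -138 counted from the start site. Of 32851 windows in the table, 7.15% held that motif. The Nfil3 window held the ROR core on the opposite strand (TGACCT), at position -12, and 16.3% of all windows held this core. No match of the 6 motifs was found in the Dbp window. The other 4 motifs were in 4.68% (CACGTT), 0.938% (TTATGTAA), 0.119% (TTACGTAA) and 0.0487% (glucocorticoid response element) of windows, and matched in none of these 4. The GC content was 60.3% for Dbp, 64.0% and 62.0% for Tef and 81.7% for Nfil3, where the median window had 52.7%.

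Signals were multiplied by a factor per array to a common trimmed mean (factors from 0.925 to 1.07), and values under a floor of 3.91 units were set to it before log2 was taken. A difference was called when it reached 2-fold with a Present call on the brighter array, a rule of size without any test. A fold is written with 'at least' where the dimmer array lacked a Present call. Such a fold is a bound for the floor of 3.91 units only, and can be smaller with a higher floor. Present calls covered 44.4% to 47.0% of probe sets, and 7 of 7 hepatocyte markers (Alb and Ttr among them) were Present on all arrays, while 0 of 3 bile duct markers were Present on any. The summed signal of markers ran from 27627 to 29462 for hepatocytes, 197.2 to 262.3 for blood and immune cells, 1052 to 1960 for red cells, 109.9 to 128.9 for endothelial cells and 63.2 to 100.6 for stellate cells. Red cell, stellate and endothelial sums were highest on the ADX ZT14 array and lowest on the sham ZT14 array, and hepatocyte sums were the reverse. Single markers did not all follow. No hepatocyte marker was both lowest on ADX ZT14 and highest on sham ZT14. Alb, for example, was highest on ADX ZT2 (9736), and Ttr was lowest on sham ZT14 (897.5). Of the 2 red cell markers Hba-a1 followed its sum, but Alas2 was 170.9 on ADX ZT14 and 178.3 on sham ZT14. Among endothelial markers Kdr was lower on ADX ZT14 (22.6) than on sham ZT14 (34.2), and the others were higher. Of 4 stellate markers, 1 was Present on each ZT14 array. This was Col3a1, with 42.1 on ADX ZT14 and 29.5 on sham ZT14, and it followed the sum. Des followed too, with 17.7 on ADX ZT14 and 2.64 on sham ZT14, but was Absent on all arrays. Acta2 was lowest on sham ZT2 (6.20), and Col1a1 was highest on ADX ZT2 (32.8). The part of these cell types in the results was not tested. In whole liver, fewer cells of a type and less RNA per cell cannot be told apart.

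Dbp and Tef were higher, and Nfil3 lower, at ZT14 than at ZT2 in ADX and in sham livers. All 4 probe sets were called in the ADX pair, 2 higher and 2 lower, where 2.89% of 6125 probe sets Present on either array were called higher and 2.45% lower. In the sham pair 3 of the 4 were called, 2 higher and 1 lower, against 3.42% of 6166 higher and 2.53% lower.

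Dbp (probe set 160841_at), an activator that is a direct output of the clock, had a scaled signal of 115.8 at ZT14 and 0.834 at ZT2 in ADX livers. In sham livers it had 98.2 at ZT14 and 1.20 at ZT2. Both ZT14 arrays were Present and far above both ZT2 arrays, which were Absent with detection p-values of 0.893 in ADX and 0.883 in sham. The difference was at least 29.6-fold in ADX and at least 25.1-fold in sham, on the log2 scale 4.89 and 4.65 against the floor. These sizes rest on the floor, and at 23.9 units, the 95th percentile of Absent signals, they were 2.28 and 2.04. With neither ZT2 array above the floor, no difference between ADX and sham could be read for Dbp at ZT2.

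**Figure D1:**
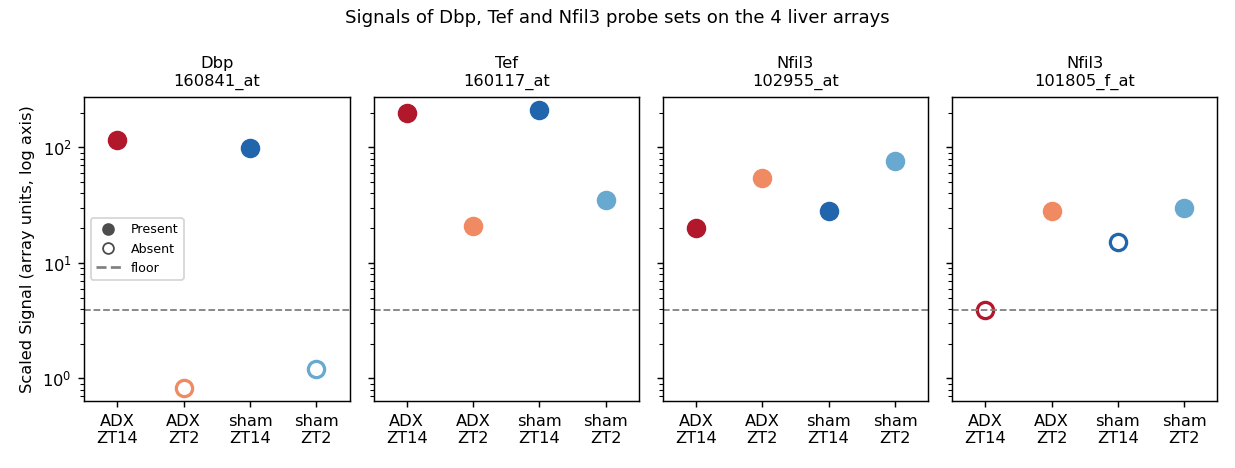
Scaled Signal (log axis, array units) of each Dbp, Tef and Nfil3 probe set on the 4 arrays, 1 point per array, with filled points for Present and open points for Absent calls and a dashed line at the floor of 3.91 units. Dbp and Tef sit high at ZT14 with and without adrenal glands, and both Nfil3 probe sets sit high at ZT2.

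Tef (probe set 160117_at), the other PAR activator measured, was Present on all arrays. Its scaled signal was 197.3 at ZT14 and 21.0 at ZT2 in ADX livers. In sham livers it was 208.3 at ZT14 and 35.0 at ZT2. The ZT14 arrays were close together and both far above the ZT2 arrays, of which ADX was the lower. The ZT2 calls were the less firm, with detection p-values of 0.0219 in ADX and 0.0247 in sham, where the largest p of any Present call was 0.0397. Tef was 9.41-fold higher at ZT14 in ADX and 5.95-fold higher in sham. By size this was the third of 5167 differences between arrays both Present in the ADX pair, and number 10 of 5250 in the sham pair.

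Nfil3, the repressor, was read by 2 probe sets, 102955_at from a complete coding sequence of 1389 bases and 101805_f_at from a partial sequence of 426 bases. The letter f in the second name marks, in Affymetrix usage, probes that may also match related sequences. The first probe set had a scaled signal of 20.2 at ZT14 and 54.6 at ZT2 in ADX livers, and 28.1 at ZT14 and 76.8 at ZT2 in sham livers. It was Present on all arrays, and both ZT14 values lay under both ZT2 values. The fold was 2.71 lower at ZT14 in ADX and 2.73 lower in sham, so the log2 differences (-1.44 and -1.45) were nearly equal. Among differences towards lower signal at ZT14 it stood at number 14 of those in the ADX pair and at number 23 in the sham pair, counted over arrays both Present.

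The second Nfil3 probe set had a scaled signal of 3.95 at ZT14 and 28.4 at ZT2 in ADX livers, and of 15.1 at ZT14 and 30.0 at ZT2 in sham livers. It was Present at ZT2 and Absent at ZT14 under both operations. It was at least 7.18-fold lower at ZT14 in ADX, and in sham its difference, at least 1.98-fold against the Absent signal, fell short of a call. With signals as deposited or after quantile normalization the sham difference was called (log2 -1.06 in both). With the floor at 23.9 units the ADX difference was not called (-0.25). The probe sets of Nfil3 thus shared the direction and differed in size, and the larger ADX value of the second rests on a signal at the floor.

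**Figure D2:**
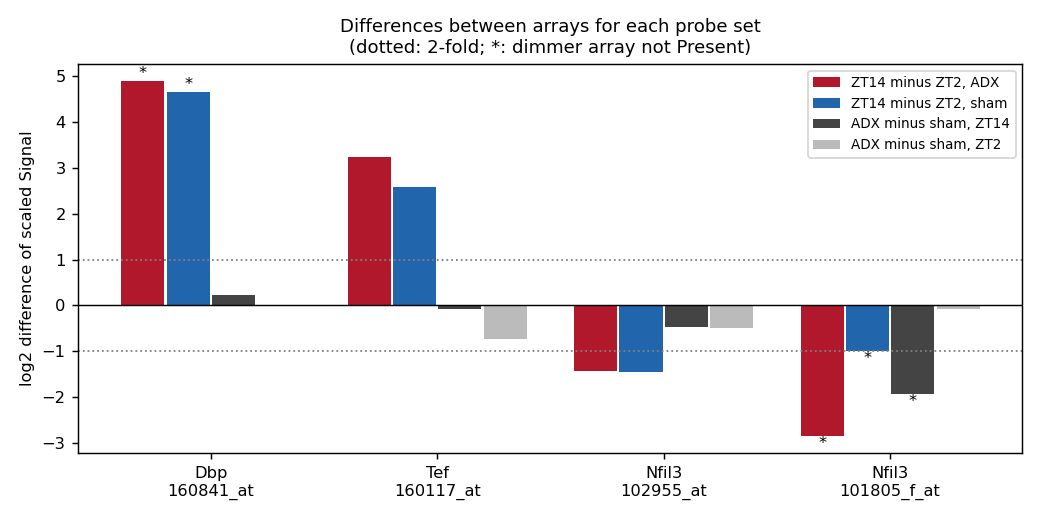
Log2 differences of scaled Signal for each probe set, with bars for ZT14 minus ZT2 in ADX and in sham and for ADX minus sham at ZT14 and at ZT2. Dotted lines mark 2-fold, stars mark differences whose dimmer array was not Present, and the Dbp bar at ZT2 is 0 because both signals were under the floor.

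The opposite directions can be put as a ratio of activator to repressor within each array, which adds the differences given above. The ratio of Tef to Nfil3 (102955_at) was 25.5-fold higher at ZT14 than at ZT2 in ADX livers and 16.2-fold higher in sham livers. For Dbp to Nfil3 the change was 80.2-fold in ADX and 68.6-fold in sham, with both Dbp ZT2 signals replaced by the floor. With the floor at 23.9 units, the Dbp part of this change was log2 2.28 in ADX and 2.04 in sham, not 4.89 and 4.65. All these folds are changes of a ratio between the times, since the level of one probe set cannot be set against that of another.

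In a limma fit with time and operation as additive terms, the ADX and sham arrays of a time served as its 2 samples. It covered the 5872 probe sets with 2 or more Present calls. Separate animals are not stated for the arrays, so the p-values do not measure the spread between animals. The only residual of the fit is how far the day-night difference in ADX departs from that in sham. To this limma adds the spread over all probe sets fitted, and the p-values reflect no more. Dbp entered only through its 2 ZT14 arrays, and both of its ZT2 signals were replaced by the floor, so its estimate and SE rest on the filter and the floor. On those terms it was higher at ZT14 by 4.77 on the log2 scale (SE 0.16, Benjamini-Hochberg adjusted p = 0.0396), and without the detection filter its adjusted p was 0.421. In all 2 probe sets were called, 0.0341% of those tested, and nothing is read from Dbp being among them. Tef differed by 2.90 (SE 0.23, adjusted p = 0.100) and did not pass, although it was higher in both pairs. The Nfil3 probe sets differed by -1.44 (SE 0.15, adjusted p = 0.184) and -1.91 (SE 0.49, adjusted p = 0.307), both lower in both pairs, and did not pass. The fit had 1 residual degree of freedom. With a floor doubled to 7.82 units the adjusted p of Dbp was 0.114 and no probe set was called, while 747 had an unadjusted p under 0.05. With signals as deposited Tef passed (adjusted p = 0.0238).

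**Figure D3:**
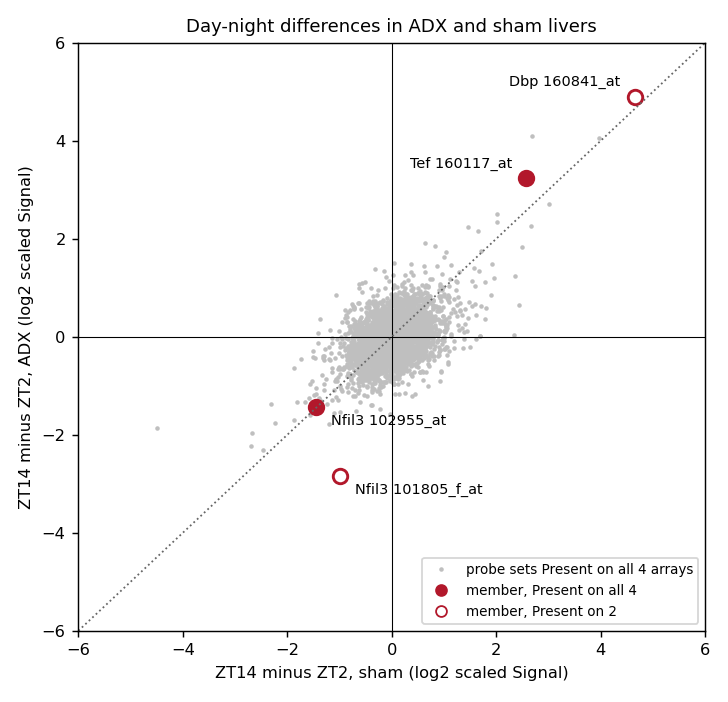
ZT14 minus ZT2 in ADX livers (vertical) against the same difference in sham livers (horizontal), both as log2 of scaled Signal. Grey points are the 4877 probe sets Present on all arrays, red points are the Dbp, Tef and Nfil3 probe sets (open where only 2 arrays were Present), and the dotted line marks equal differences. Tef lies above that line, Nfil3 102955_at on it and Nfil3 101805_f_at well below it.

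Between operations, no Dbp, Tef or Nfil3 probe set was called at either time, where 4.07% of 5996 probe sets at ZT14 and 2.56% of 6247 at ZT2 were called in either direction. These comparisons use the same 4 arrays as the day-night pairs. Dbp at ZT14 was 115.8 in ADX and 98.2 in sham, a log2 difference of 0.24. Tef at ZT14 was 197.3 in ADX and 208.3 in sham (-0.08). Both were smaller than the robust SD of 0.31 over all probe sets Present on both ZT14 arrays.

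At ZT2, Tef was 21.0 in ADX and 35.0 in sham, 1.67-fold lower in ADX (log2 -0.74). The robust SD of this difference was 0.25 over all probe sets Present on both ZT2 arrays and 0.39 among the 500 nearest in signal. By size it was number 155 of 5367, and number 50 among those lower in ADX. The first Nfil3 probe set was lower in ADX at both times. It was 20.2 in ADX and 28.1 in sham at ZT14 (log2 -0.48), and 54.6 in ADX and 76.8 in sham at ZT2 (log2 -0.49). The robust SD was 0.31 at ZT14 and 0.25 at ZT2 over all probe sets, and 0.41 at ZT14 and 0.26 at ZT2 near its signal. The second Nfil3 probe set gave -0.08 at ZT2, with 28.4 in ADX and 30.0 in sham. At ZT14 it was Absent on both arrays, with 3.95 in ADX and 15.1 in sham, so no fold is given.

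In the additive fit, none of the 4 probe sets passed for operation, with adjusted p-values from limma between 0.830 and 0.922. The Dbp estimate is not given, since it averages the ZT14 difference with a 0 made by the floor at ZT2. Nor is that of Nfil3 by 101805_f_at, which averages its ZT2 difference with one between Absent signals at ZT14. The others, ADX minus sham, were -0.41 for Tef (SE 0.23) and -0.49 for Nfil3 by 102955_at (SE 0.15). No probe set on the array passed for operation in limma, while 329 had an unadjusted p under 0.05. With signals as deposited, by quantile normalization, with a variance trend or without a term for time, 1 probe set did, which was none of these 4.

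The day-night difference in ADX minus that in sham was 0.66 for Tef and 0.01 for Nfil3 by 102955_at, on the log2 scale. None is given for Dbp, whose ZT2 signals were under the floor in ADX and in sham. By 101805_f_at it was -1.86, with Absent calls behind it. Over the 4877 probe sets Present on all arrays this quantity had a robust SD of 0.37. No test of it is possible with 1 array per group, and the Tef value does not show that the operation changed its day-night difference.

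Likeness of pattern was measured as the Euclidean distance between log2 signals on the 4 arrays, each gene centred on its own mean, against 5006 other genes Present on at least 1 array. Nearest to Dbp was Noct, which encodes nocturnin, at a distance of 0.76, with signals of 287.8 (ADX ZT14), 17.2 (ADX ZT2), 258.0 (sham ZT14) and 16.6 (sham ZT2). It was followed by Usp2, a ubiquitin protease (1.63), Mt1, a metallothionein (1.64), Tef (1.95) and Mt2 (2.06). Because the Dbp values at ZT2 were set to the floor, its distances depend on that floor.

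Nearest to Tef was Slc5a6, a vitamin transporter, at 0.57, but it was Absent on both ZT2 arrays. Next came Upp2, a uridine phosphorylase (0.65), with signals of 1712 (ADX ZT14), 303.0 (ADX ZT2), 1869 (sham ZT14) and 462.4 (sham ZT2). As for Tef, the ZT2 signal was the lower one in ADX. Per2, a core clock repressor (0.70), Bhlhe40, another clock repressor (0.88), and Nr1d2, which encodes REV-ERBβ (1.13), completed the 5 nearest.

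Nearest to Nfil3 (102955_at) was Ethe1, a mitochondrial sulfide oxidation enzyme, at 0.31, with 250.8 (ADX ZT14), 609.9 (ADX ZT2), 392.6 (sham ZT14) and 805.2 (sham ZT2). Rdh11, a retinol dehydrogenase (0.32), Irs2, an insulin receptor substrate (0.32), Hmgcs1, an enzyme of cholesterol synthesis (0.32), and S100a10, a calcium-binding protein family member (0.33), came next. Irs2 was Present only at sham ZT2. The genes were picked for their likeness, and with 4 arrays such matches describe these arrays only.

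The list of relatives of these factors held the PAR gene Hlf and the C/EBP family, which shares the basic leucine zipper fold. Of its 7 genes 5 were measured, all from the C/EBP family. Ddit3, a stress-induced member, was higher at ZT14 past 2-fold in each pair, and no other member passed, with none lower. Genes taken by their brightest probe set were called higher in 2.69% of 4714 cases in ADX and 3.16% of 4742 in sham. Calls lower covered 2.23% of these genes in ADX and 2.32% in sham. Ddit3 was at least 2.07-fold higher in ADX and 2.32-fold higher in sham, and the sham value (log2 0.93) was not called with the floor at 23.9 units. Cebpb, a regulator of the acute phase, had log2 differences of 0.90 in ADX and 0.68 in sham. Cebpa, which maintains hepatocyte identity, had 0.37 in ADX and 0.31 in sham. Cebpd had 0.06 in ADX and 0.24 in sham, and Cebpg had -0.04 in ADX and 0.27 in sham. Between operations none of the 5 was called at either time. Over all genes, 2.01% were called higher and 1.39% lower in ADX at ZT14, and 1.48% higher and 0.77% lower at ZT2. The list's median was 0.37 in ADX and 0.31 in sham, where that of all 5007 measured genes was 0.0075 and -0.0023. Hlf, the remaining PAR member, was not analysed here.

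Of 16 genes listed as clock regulators, 12 were measured. In ADX 3 were higher at ZT14 (Per2, Bhlhe40 and Nr1d2), 2 were lower (Arntl and Per3) and 7 passed neither way. In sham the same 3 were higher, Arntl alone was lower and 8 passed neither way. Calls higher covered 2.69% of genes in ADX and 3.16% in sham, and calls lower covered 2.23% in ADX and 2.32% in sham. Arntl encodes BMAL1, the activator of Dbp. Its signal was 9.29 at ZT14 and 69.6 at ZT2 in ADX, and 5.47 at ZT14 and 74.9 at ZT2 in sham, high where Dbp and Tef were low. Arntl was Absent on the ADX ZT14 array and Present on the others. Nr1d1 encodes REV-ERBα, the repressor of Nfil3, and was called in neither pair. It had 37.1 at ZT14 and 25.6 at ZT2 in ADX, and 31.8 at ZT14 and 37.9 at ZT2 in sham, log2 0.53 and -0.26. Its relative Nr1d2 had 83.3 at ZT14 and 17.5 at ZT2 in ADX, and 63.9 at ZT14 and 23.4 at ZT2 in sham.

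The other clock regulators that were not called (Clock, Cry1, Cry2, Rora and Csnk1d in both pairs, with Per3 in sham) had log2 differences from -0.75 (Rora) to 0.17 (Cry1) in ADX and from -0.63 (Rora) to 0.72 (Cry2) in sham. Per1 was not called in either pair and was Absent on both ADX arrays, so it has no difference there. A dimmer probe set of Csnk1d, Present only on the ADX ZT2 array, was lower at ZT14 in ADX past 2-fold (log2 -1.27), unlike its brightest one. The median of the 12 was 0.11 in ADX and -0.07 in sham. Per2 in ADX (log2 0.83) and Per3 (0.00) were not called with the floor at 23.9 units. Between operations, 1 of the 12 regulators was called. The shares of all genes were 1.39% lower and 2.01% higher at ZT14, and 0.77% lower and 1.48% higher at ZT2. Per3 was at least 2.03-fold lower in ADX at ZT14, and it too was not called with that floor.

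**Figure D4:**
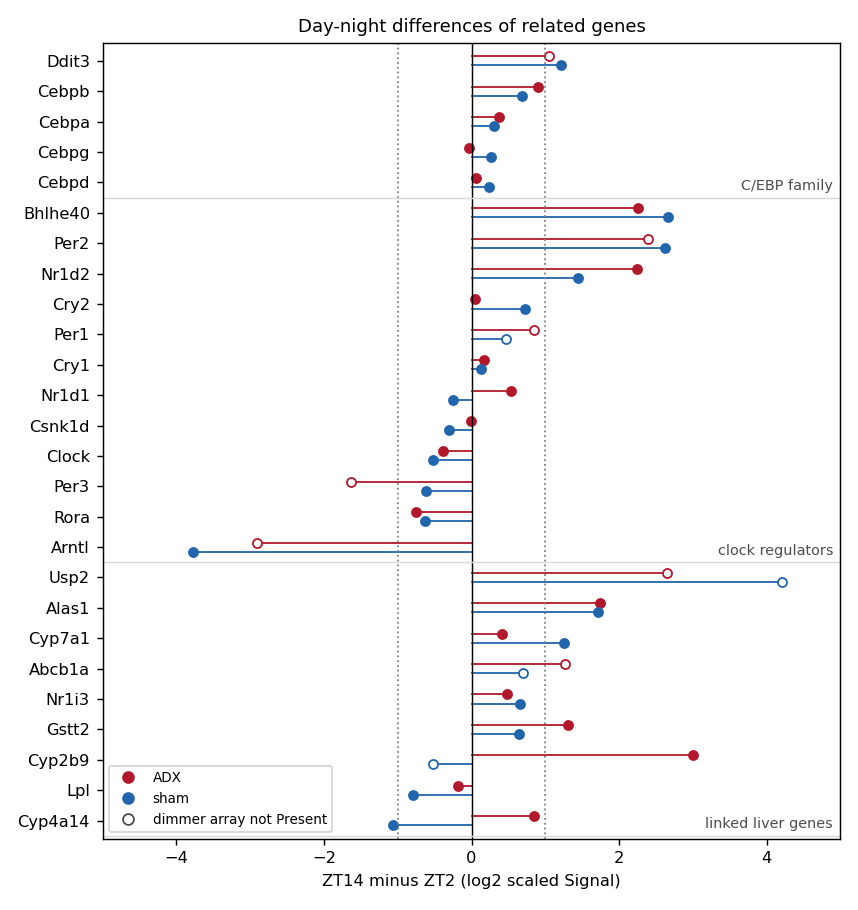
ZT14 minus ZT2 as log2 of scaled Signal for C/EBP family members, clock regulators and liver genes linked to PAR factors, with ADX in red above sham in blue, open points where the dimmer array was not Present and dotted lines at 2-fold. The liver genes drawn are those past 2-fold in any comparison, with Nr1i3. Alas1 and Bhlhe40 were called higher in both pairs, Cyp4a14 points right in ADX and left in sham, and Cyp2b9 was Absent on both sham arrays.

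Of 39 liver genes linked to PAR factors, 32 were measured. In ADX 5 were higher at ZT14, none was lower and 27 passed neither way. In sham 3 were higher, 1 was lower and 28 passed neither way. Over all genes, 2.69% were called higher and 2.23% lower in ADX, and 3.16% higher and 2.32% lower in sham. The list's median was 0.22 in ADX and -0.02 in sham, where that of all 5007 measured genes was 0.0075 and -0.0023. Alas1, the rate-limiting enzyme of haem synthesis, had signals of 1861 at ZT14 and 554.8 at ZT2 in ADX, and of 1998 at ZT14 and 609.4 at ZT2 in sham. These were 3.35-fold and 3.28-fold differences towards ZT14, in the direction of Dbp and Tef. Usp2 was higher at ZT14 in both pairs by both of its probe sets, and Absent on all ZT2 arrays.

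Cyp7a1, which starts bile acid synthesis, had 96.6 at ZT14 and 72.4 at ZT2 in ADX, and 126.3 at ZT14 and 52.9 at ZT2 in sham. The log2 difference was 0.42 in ADX, which was not called, and 1.25 in sham, which was, and the difference between the pairs was not tested. Gstt2, a glutathione transferase, was 2.49-fold higher at ZT14 in ADX and called there, while in sham the 1.56-fold difference was not. Cyp2b9, a cytochrome P450, was 7.99-fold higher at ZT14 in ADX and Absent on both sham arrays. Abcb1a, a drug efflux pump, was called higher in ADX (at least 2.40-fold), but not with the floor at 23.9 units. Cyp4a14, a fatty acid hydroxylase, was 2.10-fold lower at ZT14 in sham, while in ADX its log2 difference was 0.84.

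Nr1i3, which encodes the xenobiotic receptor CAR, had log2 differences of 0.48 in ADX and 0.65 in sham and was not called, nor were its other probe sets, which lay between 0.27 and 0.57. Between operations, Cyp2b9 (at least 38.1-fold) and Lpl, lipoprotein lipase (2.09-fold), were higher in ADX at ZT14, where 2.01% of genes were called higher. At ZT2 Cyp2b9 was higher (at least 3.32-fold) and Cyp4a14 lower (2.99-fold) in ADX, where 1.48% of genes were called higher and 0.77% lower. At each time 30 of the 32 passed neither way. The call of Lpl was lost with signals as deposited (log2 0.94), and that of Cyp2b9 at ZT2 with the floor at 23.9 units (0.32).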

How the data were processed

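Per the labels, liver RNA of male mice was hybridised to 4 arrays, 1 per group. Per the file headers, the deposited intensity is a single-array Affymetrix Signal on a linear scale. A detection call and a deposited detection p-value accompany each probe set. The software and the scaling target were not given in the sources used here. Intensities in the value table of the series were identical (largest difference 0). The run sheets show 1 hybridisation day and fluidics station, with a module per array, so module and group cannot be told apart.

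Each array was scaled to a common 2% trimmed mean. The floor was 3.91, the median of Absent signals, which exceeded the smallest Present one (3.05). The 66 control probe sets were left out. The robust SD is the scaled median absolute deviation. Genes were named from the platform annotation, which gave 10833 probe sets 1 symbol, and lists used each gene's brightest probe set. Besides all Dbp, Tef and Nfil3 probe sets, the text names measured members of the C/EBP and clock lists, linked liver genes past 2-fold with Alas1, Cyp7a1 and Nr1i3 (Por was not analysed here), and the 5 genes nearest in pattern. Members and lists were chosen with earlier results of these data known. The fit used limma 3.58.1 in R 4.3.3 (lmFit, eBayes). Everything else used Python 3.11.15, pandas 2.3.3, NumPy 2.4.6 and SciPy 1.17.1. The scaling and pair comparison and the limma fit were tested on simulated data. Alternatives covered scaling, floor, detection filter, variance trend, model terms and probe set choice. The number of arrays limits the precision.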

Additional observations from a re-analysis of the deposited data

Results flagged for a closer look

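None of the Dbp, Tef and Nfil3 probe sets moved in opposite directions in ADX and sham livers or at ZT14 and ZT2, with a call on either side. For ADX against sham none could be flagged, since none of these probe sets was called at either time. Among the genes of the lists and the cell type markers, 5 had opposite signs with a call on at least 1 side, and with 1 array per group none of these differences was tested. The share of all genes with this pattern was not counted, so nothing is read from the number. Cyp4a14 at ZT14 against ZT2 differed by 0.84 in ADX and by -1.07 in sham on the log2 scale, 1.91 apart, and the same 4 signals give ADX against sham of 0.33 at ZT14 and -1.58 at ZT2, also 1.91 apart. Cyp2b9 at ZT14 against ZT2 differed by 2.999 in ADX and by -0.52 in sham, 3.52 apart, but with Absent calls on both sham arrays no direction can be read in sham. Per3 in ADX against sham differed by -1.02 at ZT14 and by 0.001 at ZT2, -1.02 apart, with an Absent call on the ADX ZT14 array and a ZT2 value near 0. Apob, a hepatocyte marker, at ZT14 against ZT2 differed by -0.007 in ADX and by 1.01 in sham, -1.01 apart, with an ADX value near 0. Hba-a1, a red cell marker, in ADX against sham differed by 1.03 at ZT14 and by -0.30 at ZT2, 1.33 apart.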

How the results depend on the processing

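Dbp, Tef and Nfil3 (102955_at) kept the direction and the 2-fold call of their day-night differences in both pairs under all 5 alternatives of scaling and floor. Over these, Tef ran from 3.05 to 3.23 in ADX and from 2.50 to 2.57 in sham, and Nfil3 from -1.50 to -1.20 in ADX and from -1.53 to -1.45 in sham (log2). Dbp ran from 2.28 to 6.86 in ADX and from 2.04 to 6.35 in sham, since its ZT2 signal was under every floor in ADX and, in sham, under every floor except 1 unit. In limma, the time effect of Dbp lost its call with a doubled floor (3.77), with a floor of 23.9 units (2.16) and without a detection filter (4.77), at adjusted p of 0.114, 0.268 and 0.421. Tef passed with signals as deposited (2.85, adjusted p = 0.0238) and with a variance trend (2.90, adjusted p = 6.66e-04), and Nfil3 (102955_at) with the trend (-1.44, adjusted p = 0.0121). Over all alternatives adjusted p ran from 2.66e-04 to 0.421 for Dbp, from 6.66e-04 to 0.421 for Tef and from 0.0121 to 0.421 for Nfil3.

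Probe sets called for time in limma numbered 2, but 18 with signals as deposited, 154 with a variance trend, 11 without a term for operation, 1 with a floor of 1 unit or over probe sets Present on all arrays, and 0 with a doubled floor, a floor of 23.9 units or no filter, where 747, 882 and 1414 had an unadjusted p under 0.05. For operation 0 were called, and 1 with signals as deposited, quantile normalization, a variance trend or no term for time. The day-night calls of 327 in ADX and 367 in sham fell to 120 and 142 with a floor of 23.9 units and to 69 and 86 at 3-fold. Operation calls of 244 at ZT14 and 160 at ZT2 fell to 135 and 77 with a doubled floor, 46 and 20 with a floor of 23.9 units, and 40 and 25 at 3-fold. The share of calls that were higher was 54.1% (ADX) and 57.5% (sham) between times and 60.2% (ZT14) and 67.5% (ZT2) between operations. Under quantile normalization it was 42.4%, 45.5%, 49.6% and 45.9%, and with signals as deposited 49.1%, 46.6%, 43.6% and 43.4%, in that order. As deposited, the median probe set shifted by -0.11 (ZT14) and -0.17 (ZT2) between operations. The day-night difference in ADX minus that in sham for Nfil3 (101805_f_at) moved to -0.87 with a doubled floor and 0.08 with a floor of 23.9 units. Of 784 list gene values under alternatives, 7 lost a call, 6 of them with the floor of 23.9 units. Of the lists' counts 5 moved by over 1.5 times and 43 did not, and of their medians 9 moved by 0.1 or more and 39 did not, 6 of the 9 with signals as deposited, all between operations. The clock list's day-night median in ADX was 0.00 with the floor of 23.9 units. No paired analysis was possible because the labels give no replicate numbers and each group has 1 array. A fit of each pair alone leaves no residual degree of freedom, so its values are the pair differences in the report.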
